A study of Mus musculus with 16 samples.

Results

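The genes described here are 38 markers of monocytes and macrophages, chosen by symbol, out of 51912 genes in the table of a study of the regenerating mouse heart. They were chosen with earlier results of these data known. All 38 were found: 37 by their symbol, and *Fcrls* by its Ensembl identifier, which the GENCODE annotation names *Fcrl2*. Of the 38, 37 passed the filter on low values and entered the test over 20159 genes. *Chil3* did not, because its summed count was under the minimum of 10 in WT SH and in KO SH. They are taken below by role: 10 genes of mononuclear phagocyte identity, the growth factor *Csf1*, 11 markers of resident macrophages, 5 genes of recruited monocytes and alternative activation, 7 genes of phagocytosis and effector function, and 4 Fc receptor and adaptor genes.

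The study asked whether LRRC10, a protein of cardiomyocytes, is needed for the regeneration that the neonatal mouse heart shows after myocardial infarction. Whole ventricles were taken 7 days after surgery from WT mice and from mice with a whole-body deletion of *Lrrc10* (KO), each after a sham operation (SH) or an infarction (MI), giving WT SH, WT MI, KO SH and KO MI with 4 libraries apiece. Surgery was done at postnatal day 1, the infarct was made by tying the left anterior descending coronary artery, and the labels call each group balanced by sex. WT mice were bought C57BL/6J animals and the KO line was kept on a C57BL/6 background, so the deletion and the colony cannot be told apart in any comparison of genotypes. RNA came from the whole ventricle with no sorting of cells, so fewer macrophages and less RNA of a gene per macrophage cannot be told apart here.

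Macrophages of the newborn heart descend largely from embryonic precursors, maintain themselves in the tissue, and depend on signalling through the receptor CSF1R. After an infarct, circulating monocytes enter the injured muscle, and both these and the resident cells take up dead cells, remodel matrix and release growth factors. Depletion of macrophages is known to impair the regeneration of the neonatal mouse heart, which is why their genes are of interest in this setting. Several of the 38 genes are not restricted to these cells: *Lyve1* is also made by lymphatic endothelium, *Stab1* and *Mrc1* by some endothelia, *Csf1* by fibroblasts and endothelium, *Pf4* and *F13a1* by the platelet lineage, and *Ptprc*, *Cybb*, *Clec7a*, *Plac8*, *Tyrobp* and *Fcer1g* by other leukocytes.

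Libraries held between 33783874 and 57470159 counts, and a gene at 0 counts could have had up to 3 counts, which is 0.0577 to 0.0858 counts-per-million units (CPM), a limit that covers counting error only. *Lrrc10*, the deleted gene, had 1075 to 1850 counts in the 8 WT libraries and 0 in the 8 KO libraries. *Xist* was above 100 CPM, as in female tissue, in 2 of 4 libraries of KO SH, WT MI and KO MI and in none of WT SH, so WT SH differs in sex from the 3 other groups. Both comparisons with WT SH hold a difference in sex, and so does the difference between the infarct effects of KO and WT, which includes WT SH. KO MI replicates 2 and 7 carried transcripts of embryonic skeletal muscle, with *Myh3* at 12.6 and 34.3 CPM. KO MI replicate 3 was the highest of its group in 27 of the 38 members and the lowest in none, KO MI replicate 1 was the lowest in 24, WT MI replicate 1 was the lowest of its group in 28 and WT MI replicate 2 the highest in 25. Calls of members that were lost without one of these libraries are given with and without it. Many calls that held are given only with all libraries, and their size can still depend on these libraries.

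In the sham-operated WT heart the members were low, and the most abundant were *Mrc1*, *Stab1* and *F13a1*, resident markers that other cells also make. Per kilobase of exon, the highest mean levels in WT SH were those of *Mrc1* at 4.02 CPM per kb, *Stab1* at 3.54 and *F13a1* at 3.45, followed by *Csf1* at 2.37, *Maf* at 2.17 and *Mertk* at 2.06. The other resident markers were lower, from *Lyve1* at 1.12 down to *Timd4* at 0.0715 CPM per kb. *Csf1r*, the receptor that macrophages need to survive, was at 1.35 CPM per kb and *Adgre1*, which encodes the F4/80 antigen, at 1.01. At the other end were *Gpnmb* at 0.0139, *Plac8* at 0.0145 and *Chil3* at 0.0221 CPM per kb, each at 8 or fewer counts in every WT SH library. The CPM of the 38 genes summed to 190.3 to 212 in the WT SH libraries, 175 to 188 in KO SH, 232 to 319 in WT MI and 203 to 468 in KO MI, where the highest value was that of replicate 3.

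After infarction many of the members rose, and none fell, in either genotype. A gene was called changed at a Benjamini-Hochberg adjusted p under 0.1, from quasi-likelihood tests in edgeR over all 20159 genes, and a log2 fold change of at least 0.5 in size. Values are given below with the standard error (SE) of the log2 fold change. In WT MI against WT SH, 13 of the 37 tested members rose and 0 fell, where 2.13% of all tested genes rose and 0.645% fell. In KO MI against KO SH, 26 rose and 0 fell, where 5.31% of all tested genes rose and 2.1% fell. Because the members were chosen with earlier results of these data known, these shares are a description and not a test. The median log2 fold change of the members was 0.57 in WT and 1.03 in KO, where the median of all tested genes was -0.0043 and -0.0103. All 13 genes that rose in WT also rose in KO: *Mpeg1*, *Ptprc*, *Ctss*, *Plac8*, *Cd14*, *Arg1*, *Trem2*, *Gpnmb*, *Msr1*, *Lgals3*, *Clec7a*, *Cybb* and *Fcer1g*. A further 13 passed the test in KO and not in WT: *Spi1*, *Csf1r*, *Adgre1*, *Aif1*, *Laptm5*, *Maf*, *Timd4*, *Mrc1*, *Cd163*, *F13a1*, *Siglec1*, *Fcgr1* and *Fcgr3*. This list depended on the fit. DESeq2, the tool named in the paper, also called *Laptm5* (DESeq2 adjusted p = 0.062) and *Fcgr3* (DESeq2 adjusted p = 0.0804) in WT. With only the 2 groups compared in the edgeR fit, *Adgre1*, *Maf*, *Mrc1*, *F13a1* and *Fcgr1* lost the KO call, at edgeR adjusted p of 0.1 to 0.193. The difference between the 2 infarct effects, tested as an interaction, was called for 0 of the 37, so this split is not shown to be a difference between the genotypes. Every WT MI library was above every WT SH library for 18 of the 37 tested members, and every KO MI library above every KO SH library for 19, where this held for 6.16% and 7.67% of all tested genes. Without KO MI replicate 3, 20 members rose in KO and their median log2 fold change was 0.75, without KO MI replicates 2 and 7 together 28 rose, and *Xist* status as a further term left the counts at 13 and 26.

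**Figure D1:**
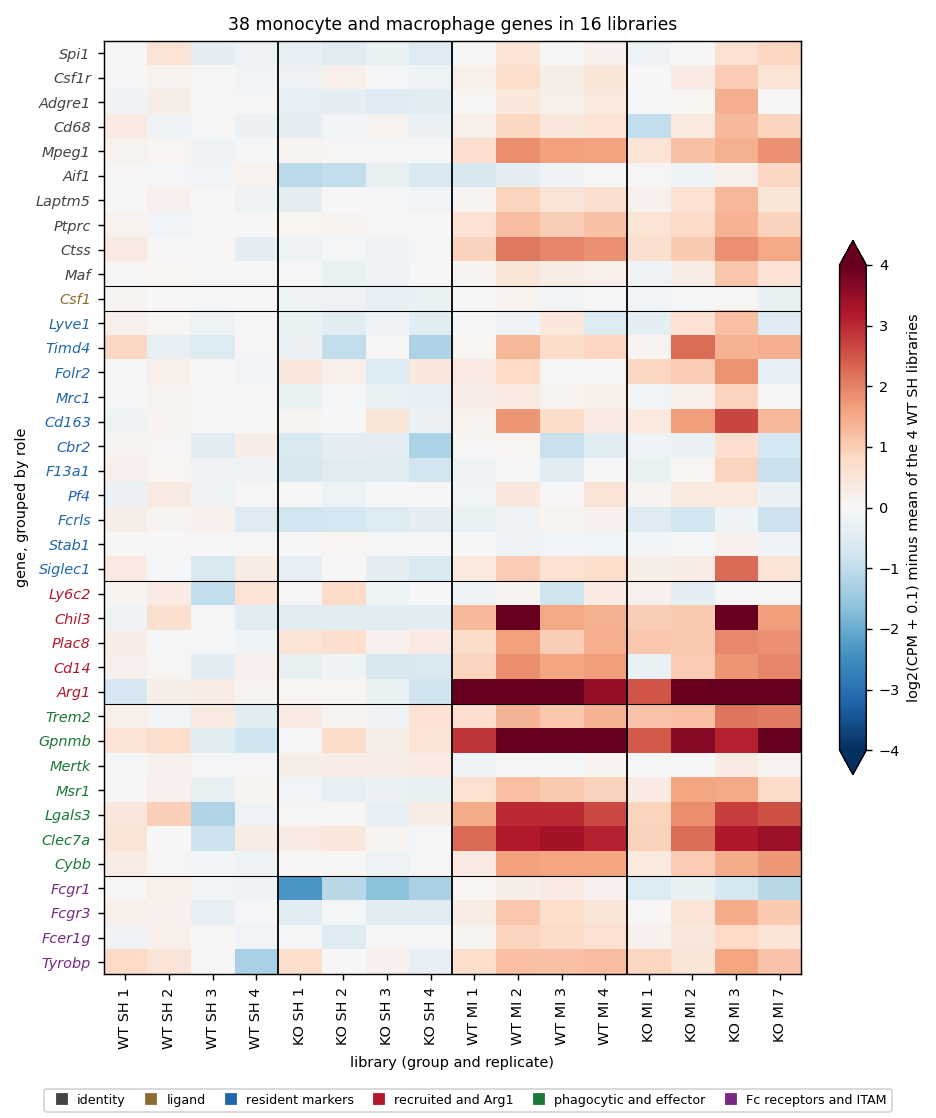
Level of the 38 members in each of the 16 libraries, as log2(CPM + 0.1) minus the mean of the 4 WT SH libraries, with rows grouped by role and the scale ending at 4 in each direction. *Arg1*, *Gpnmb*, *Lgals3* and *Clec7a* are raised in all 8 MI libraries, WT MI replicate 1 and KO MI replicate 1 are the palest of their groups in most rows, and KO MI replicate 3 is the darkest of its group for *Chil3*, *Siglec1*, *Cd163* and *Adgre1*.

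**Figure D2:**
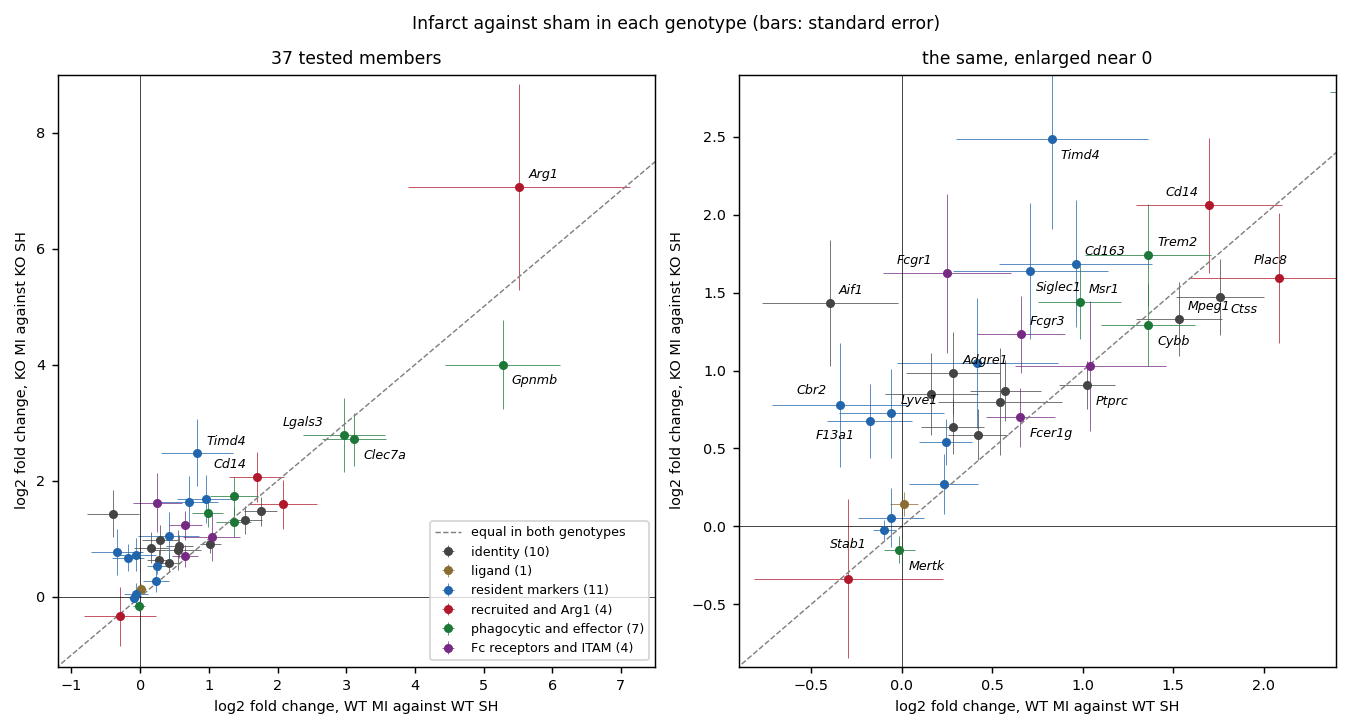
Log2 fold change of each of the 37 tested members after infarction in WT (horizontal) and KO (vertical), with standard errors as bars, the whole range on the left and the range near 0 on the right. *Gpnmb* and *Arg1* lie far from 0 in both genotypes, and the blue points of the resident markers lie above the dashed line of equal effects, although 0 of the 37 differences passed the test.

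Short sequences that transcription factors of this lineage are known to bind were looked for in the 250 bases before the transcription start of each gene, on both strands. These were GAGGAAG, a core of sites of PU.1 (the product of *Spi1*), TGCTGAC, which forms one side of sites of MAF proteins, and CACGTG, the E-box bound by MITF and its relatives. GAGGAAG was present in the windows of 8 of the 38 members, among them *Spi1*, *Csf1r*, *Mrc1*, *Fcrls*, *Ly6c2*, *Trem2* and *Fcer1g*, where 10.3% of 21770 protein-coding genes had it. TGCTGAC was in the window of 1 member, *Timd4*, where 3.24% of all windows had it, and CACGTG was in 0, where 6.26% of all windows had it. A match is a description of the letters in the window and not a bound site.

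The 150 bases before the start are shown for 5 of the members that rose in KO MI and held a match, to show where these letters stand. Whether these genes are regulated together was not tested. Sequences are from the GRCm39 genome, 5′ to 3′ on the strand of the gene, ending at the base before the start of the canonical GENCODE transcript, with the matches (or their reverse complements, CTTCCTC and GTCAGCA) in capitals. *Spi1* (chr2:90926291-90926440, plus strand, inside longer transcripts of the gene) had 2 matches, 24 and 7 bases before the start. *Mrc1* (chr2:14234001-14234150, plus strand), *Trem2* (chr17:48653279-48653428, plus strand), *Fcer1g* (chr1:171062220-171062369, minus strand) and *Timd4* (chr11:46701470-46701619, plus strand) had 1 each on the opposite strand, beginning 94, 41, 56 and 39 bases before the start.
Spi1: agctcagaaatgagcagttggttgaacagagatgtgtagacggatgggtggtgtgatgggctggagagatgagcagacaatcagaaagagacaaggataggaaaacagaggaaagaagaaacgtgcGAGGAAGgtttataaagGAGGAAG
Mrc1: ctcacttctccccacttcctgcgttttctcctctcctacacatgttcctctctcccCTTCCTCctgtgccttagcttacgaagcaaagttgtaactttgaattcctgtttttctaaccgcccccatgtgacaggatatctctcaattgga
Trem2: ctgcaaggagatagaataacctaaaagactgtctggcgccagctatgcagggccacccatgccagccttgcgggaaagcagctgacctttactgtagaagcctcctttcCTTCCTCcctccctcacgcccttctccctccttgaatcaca
Fcer1g: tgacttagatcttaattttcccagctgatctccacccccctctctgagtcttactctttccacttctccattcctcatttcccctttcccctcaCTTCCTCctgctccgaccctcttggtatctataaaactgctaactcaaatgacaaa
Timd4: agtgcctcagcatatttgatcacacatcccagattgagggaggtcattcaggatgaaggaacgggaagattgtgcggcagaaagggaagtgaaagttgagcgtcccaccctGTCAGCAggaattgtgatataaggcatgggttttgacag

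Of the 10 genes of phagocyte identity, 3 rose after infarction in WT and 9 in KO, with median log2 fold changes of 0.48 and 0.89. Beside this count and those of the roles below, 2.13% of all tested genes rose in WT and 5.31% in KO. Without KO MI replicate 3, 5 rose in KO, with a median of 0.65. *Ctss*, which encodes the lysosomal protease cathepsin S, was at 7.94, 6.17, 6.43 and 4.74 CPM in WT SH and at 11.8, 27.2, 24.4 and 22.3 CPM in WT MI. It was at 5.39, 5.86, 5.59 and 5.899 CPM in KO SH and at 9.73, 12.99, 22.1 and 18.3 CPM in KO MI. Neither genotype's sham and infarct libraries overlapped, and replicate 1 was the lowest MI library of each. Its log2 fold change was 1.76 (SE 0.24, edgeR adjusted p = 0.000978) in WT and 1.47 (SE 0.24, edgeR adjusted p = 0.0019) in KO. *Mpeg1*, the gene of the pore-forming protein perforin-2, was at 3.31, 3.13, 2.66 and 2.804 CPM in WT SH and at 4.81, 11.1, 9.37 and 9.23 CPM in WT MI. In KO it was at 3.22, 3.08, 2.84 and 2.78 CPM after sham and at 4.39, 6.79, 8.15 and 10.8 CPM after infarction. Here too the groups stood apart, with replicate 1 the lowest MI library in both genotypes. *Mpeg1* rose with a log2 fold change of 1.53 (SE 0.24, edgeR adjusted p = 0.00227) in WT and 1.33 (SE 0.24, edgeR adjusted p = 0.00269) in KO. *Ptprc*, which encodes the pan-leukocyte antigen CD45, was at 8.65, 7.295, 7.78 and 7.88 CPM in WT SH and at 11.7, 18.8, 15.7 and 18 CPM in WT MI. Its KO levels were 8.41, 8.53, 7.78 and 7.997 CPM in KO SH and 11.7, 13.5, 21.04 and 15.1 CPM in KO MI. The sham libraries of both genotypes lay in one narrow band below all 8 MI libraries. *Ptprc* had a log2 fold change of 1.02 (SE 0.15, edgeR adjusted p = 0.002) in WT and 0.91 (SE 0.15, edgeR adjusted p = 0.00211) in KO.

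The lineage receptor *Csf1r* and the lineage regulators *Spi1* and *Maf* were called in KO and not in WT. *Spi1*, the gene of PU.1, was at 0.961, 1.42, 0.715 and 0.798 CPM in WT SH and 0.946, 1.38, 0.944 and 1.09 CPM in WT MI, and the 2 groups overlapped. It was at 0.721, 0.648, 0.772 and 0.629 CPM in KO SH and 0.813, 0.964, 1.48 and 1.79 CPM in KO MI, where every MI library was above every sham library. Its log2 fold change was 0.16 (95% interval -0.38 to 0.70) in WT and 0.85 (SE 0.26, edgeR adjusted p = 0.0439) in KO, and in KO 0.75 (edgeR adjusted p = 0.121) without KO MI replicate 3, 0.81 (edgeR adjusted p = 0.104) without KO SH replicate 4 and 0.72 (edgeR adjusted p = 0.129) without KO MI replicates 2 and 7 together. *Csf1r* was at 9.84, 10.8, 9.72 and 9.21 CPM in WT SH and 11.4, 16.2, 11.6 and 13.8 CPM in WT MI. In KO SH it was at 8.496, 11.3, 9.45 and 8.81 CPM and in KO MI at 9.96, 12.5, 20.02 and 14.6 CPM. The WT groups did not overlap, while KO SH replicate 2 was above KO MI replicate 1. *Csf1r* had a log2 fold change of 0.42 (SE 0.16, edgeR adjusted p = 0.195) in WT, where it was not called, and of 0.59 (SE 0.16, edgeR adjusted p = 0.0285) in KO, which was 0.38 (edgeR adjusted p = 0.113) without KO MI replicate 3. *Maf*, which encodes a transcription factor of resident macrophages that other heart cells also make, was at 20.8, 21.3, 19.2 and 19.3 CPM in WT SH and 21.5, 28.4, 24.6 and 23.4 CPM in WT MI. It was at 20.1, 16.7, 18.2 and 19.8 CPM in KO SH and 18.1, 24.6, 43.6 and 30.3 CPM in KO MI. The highest library was KO MI replicate 3, and KO MI replicate 1 was within the range of KO SH. *Maf* rose in KO with a log2 fold change of 0.64 (SE 0.17, edgeR adjusted p = 0.025), was at 0.28 (95% interval -0.09 to 0.65) in WT, and was at 0.38 (edgeR adjusted p = 0.0918) in KO without KO MI replicate 3.

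*Adgre1* was at 3.19, 4.196, 3.402 and 3.46 CPM in WT SH and 3.699, 4.82, 4.14 and 4.67 CPM in WT MI. It was at 2.77, 2.73, 2.46 and 2.57 CPM in KO SH and 3.41, 3.76, 9.903 and 3.61 CPM in KO MI. The KO SH libraries were the lowest of the 16, and KO MI replicate 3 was above all others while the other 3 KO MI libraries lay within the range of WT SH. Its log2 fold change was 0.28 (95% interval -0.26 to 0.83) in WT and 0.98 (SE 0.26, edgeR adjusted p = 0.0226) in KO, where it was 0.45 (edgeR adjusted p = 0.0393) without KO MI replicate 3, under the fold that a call needs. *Laptm5*, a lysosomal membrane protein gene of leukocytes, was at 5.9, 6.63, 5.86 and 5.27 CPM in WT SH and 6.41, 10.99, 8.41 and 9.34 CPM in WT MI. Its levels in KO were 4.48, 5.78, 5.61 and 5.401 CPM in KO SH and 6.65, 9.03, 14.8 and 8.29 CPM in KO MI. WT MI replicate 1 lay within WT SH, and the KO groups did not overlap. *Laptm5* rose in KO with a log2 fold change of 0.87 (SE 0.20, edgeR adjusted p = 0.01) and was not called in WT at 0.57 (SE 0.20, edgeR adjusted p = 0.136), a call that was gained without WT MI replicate 1 at 0.70 (edgeR adjusted p = 0.0877). *Aif1*, the gene of the actin-binding protein IBA1, was at 0.269, 0.241, 0.229 and 0.290 CPM in WT SH and 0.126, 0.172, 0.225 and 0.261 CPM in WT MI, on 6 to 14 counts a library. It was at 0.0676, 0.0810, 0.188 and 0.131 CPM in KO SH and 0.264, 0.216, 0.308 and 0.535 CPM in KO MI, on 3 to 20 counts. KO SH was below every WT SH library, and KO MI was above every KO SH library. *Aif1* rose in KO with a log2 fold change of 1.44 (SE 0.40, edgeR adjusted p = 0.0242) and was at -0.40 (95% interval -1.19 to 0.39) in WT. *Cd68*, a lysosomal glycoprotein gene used as a macrophage marker, was at 1.31, 0.909, 1.06 and 0.846 CPM in WT SH and 1.198, 1.89, 1.42 and 1.54 CPM in WT MI. It was at 0.744, 0.945, 1.13 and 0.839 CPM in KO SH and 0.467, 1.36, 2.62 and 1.95 CPM in KO MI. WT MI replicate 1 overlapped WT SH, and KO MI replicate 1 was the lowest of all 16 libraries. *Cd68* was not called by edgeR in WT at 0.54 (SE 0.34, edgeR adjusted p = 0.459) or in KO at 0.80 (SE 0.34, edgeR adjusted p = 0.144). The KO value of *Cd68* was 1.11 (edgeR adjusted p = 0.0056) without KO MI replicate 1 and 0.44 (edgeR adjusted p = 0.485) without KO MI replicate 3. DESeq2 called *Cd68* in KO (DESeq2 adjusted p = 0.0937).

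*Csf1*, the main growth factor of macrophages, was not called in any comparison. Its CPM ran from 13.04 to 15.03 in WT SH, 11.03 to 12.1 in KO SH, 12.8 to 15.4 in WT MI and 11.2 to 14.3 in KO MI. The log2 fold change after infarction was 0.013 (95% interval -0.15 to 0.18) in WT and 0.14 (95% interval -0.02 to 0.31) in KO. Every KO SH library was below every WT SH library, with a log2 fold change of -0.25 (SE 0.078, edgeR adjusted p = 0.055), whose size was under 0.5.

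Of the 11 markers of resident macrophages, 0 rose after infarction in WT and 5 in KO, with median log2 fold changes of 0.23 and 0.72. In KO, 3 rose with a median of 0.30 without KO MI replicate 3, and 8 rose with a median of 0.99 without KO MI replicates 2 and 7 together. In WT, 1 of the 11 had an unadjusted p under 0.05 in edgeR, which was *Cd163*, and DESeq2 called 0. *Timd4*, the gene of the phosphatidylserine receptor TIM4 that marks embryo-derived macrophages, was at 0.538, 0.187, 0.143 and 0.266 CPM in WT SH and 0.273, 0.796, 0.495 and 0.543 CPM in WT MI. It was at 0.203, 0.0810, 0.271 and 0.0524 CPM in KO SH and 0.285, 1.59, 0.828 and 0.883 CPM in KO MI, on 2 to 13 counts a library in KO SH. Every KO MI library was above every KO SH library, by a small margin in replicate 1, and the WT groups overlapped. *Timd4* rose in KO with a log2 fold change of 2.49 (SE 0.58, edgeR adjusted p = 0.0085) and was at 0.83 (95% interval -0.29 to 1.94) in WT. *Cd163*, which encodes the haemoglobin scavenger receptor, was at 0.999, 1.23, 1.17 and 1.11 CPM in WT SH and 1.26, 4.11, 1.96 and 1.43 CPM in WT MI. In KO it was at 1.22, 1.13, 1.63 and 0.944 CPM after sham and 1.504, 3.78, 7.63 and 2.996 CPM after infarction. The WT groups did not overlap, WT MI replicate 1 was just above sham, and KO MI replicate 1 lay within KO SH. *Cd163* rose in KO with a log2 fold change of 1.69 (SE 0.41, edgeR adjusted p = 0.0136) and was not called in WT at 0.96 (SE 0.42, edgeR adjusted p = 0.26), which was 0.46 (edgeR adjusted p = 0.66) without WT MI replicate 2. *Siglec1*, the gene of the sialic acid receptor CD169, was at 0.769, 0.534, 0.343 and 0.725 CPM in WT SH and 0.778, 1.25, 0.922 and 0.999 CPM in WT MI. It was at 0.428, 0.567, 0.417 and 0.341 CPM in KO SH and 0.691, 0.728, 3.12 and 0.883 CPM in KO MI. Neither genotype's groups overlapped, and KO MI replicate 3 was over 3 times the next KO MI library. *Siglec1* rose in KO with a log2 fold change of 1.64 (SE 0.44, edgeR adjusted p = 0.0211), which was 0.80 (edgeR adjusted p = 0.0952) without KO MI replicate 3, and was not called in WT at 0.71 (SE 0.43, edgeR adjusted p = 0.434).

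*Mrc1*, the mannose receptor CD206 gene, was at 31.6, 33.8, 29.96 and 30.5 CPM in WT SH and 37.7, 39.99, 34.7 and 36.5 CPM in WT MI. It was at 26.3, 30.05, 26.3 and 24.8 CPM in KO SH and 29.2, 36.5, 58.1 and 32.3 CPM in KO MI. The WT groups did not overlap, and KO MI replicate 1 lay within the range of KO SH. *Mrc1* rose in KO with a log2 fold change of 0.54 (SE 0.15, edgeR adjusted p = 0.0245), which was 0.28 (edgeR adjusted p = 0.0485) without KO MI replicate 3, and was at 0.24 (95% interval -0.06 to 0.55) in WT. *F13a1*, which encodes the A chain of coagulation factor XIII, was at 26.5, 24.8, 21.3 and 21.3 CPM in WT SH and 20.8, 21.9, 17.2 and 23.04 CPM in WT MI. It was at 15.1, 16.7, 16.9 and 13.9 CPM in KO SH and 19.3, 24.6, 43.2 and 12.5 CPM in KO MI. KO SH was below every WT SH library, and KO MI ran from the lowest to the highest of the 16 libraries, in replicates 7 and 3. *F13a1* rose in KO with a log2 fold change of 0.68 (SE 0.24, edgeR adjusted p = 0.0741) and was at -0.18 (95% interval -0.67 to 0.32) in WT. The KO call of *F13a1* was lost without any one of KO MI replicates 2 and 3 and the 4 KO SH libraries, with a log2 fold change of 0.27 (edgeR adjusted p = 0.352) without KO MI replicate 3 and edgeR adjusted p of 0.113 to 0.166 without each of the other 5.

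*Lyve1*, a hyaluronan receptor gene, was at 5.23, 4.84, 4.003 and 4.496 CPM in WT SH and 4.35, 4.22, 6.205 and 3.13 CPM in WT MI. It was at 3.81, 3.46, 4.17 and 3.41 CPM in KO SH and 3.58, 6.91, 10.7 and 3.21 CPM in KO MI. In KO MI, replicates 2 and 3 were above and replicates 1 and 7 within or below the range of KO SH. Its log2 fold change was -0.06 (95% interval -0.66 to 0.55) in WT and 0.72 (SE 0.29, edgeR adjusted p = 0.112) in KO, not called, and in KO it was 0.30 (edgeR adjusted p = 0.49) without KO MI replicate 3, 0.91 (edgeR adjusted p = 0.0366) without KO MI replicate 1 and 0.93 (edgeR adjusted p = 0.0183) without KO MI replicate 7. *Folr2*, a folate receptor gene of resident macrophages, was at 0.269, 0.347, 0.286 and 0.266 CPM in WT SH and 0.399, 0.581, 0.270 and 0.304 CPM in WT MI. It was at 0.428, 0.351, 0.167 and 0.420 CPM in KO SH and 0.589, 0.689, 1.27 and 0.214 CPM in KO MI. KO MI replicates 1 to 3 were above every KO SH library and replicate 7 was within them. *Folr2* was not called by edgeR in WT at 0.42 (95% interval -0.52 to 1.35) or in KO at 1.05 (SE 0.42, edgeR adjusted p = 0.11). The KO value of *Folr2* was 1.32 (edgeR adjusted p = 0.0127) without KO MI replicate 7 and 0.58 (edgeR adjusted p = 0.423) without KO MI replicate 3. DESeq2 called *Folr2* in KO (DESeq2 adjusted p = 0.0887). *Fcrls*, an Fc receptor-like gene of resident myeloid cells, was at 3.17, 2.89, 3.03 and 1.84 CPM in WT SH and 2.21, 2.41, 2.88 and 2.996 CPM in WT MI. It was at 1.55, 1.62, 1.79 and 2.05 CPM in KO SH and 1.85, 1.55, 2.37 and 1.47 CPM in KO MI. The sham and MI libraries overlapped in both genotypes, with log2 fold changes of -0.06 (95% interval -0.44 to 0.32) and 0.054 (95% interval -0.34 to 0.45). The remaining resident markers were not called after infarction in either genotype. *Stab1*, a scavenger receptor gene, ran from 32.5 to 41 CPM over the 16 libraries, with log2 fold changes of -0.10 in WT and -0.03 in KO, *Pf4*, which encodes platelet factor 4, was at 0.23 and 0.27, and *Cbr2*, a carbonyl reductase gene, at -0.34 and 0.78. *Cbr2* was called in KO without KO MI replicate 7, at 0.97 (edgeR adjusted p = 0.0873), and was at 0.36 (edgeR adjusted p = 0.633) without KO MI replicate 3.

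**Figure D3:**
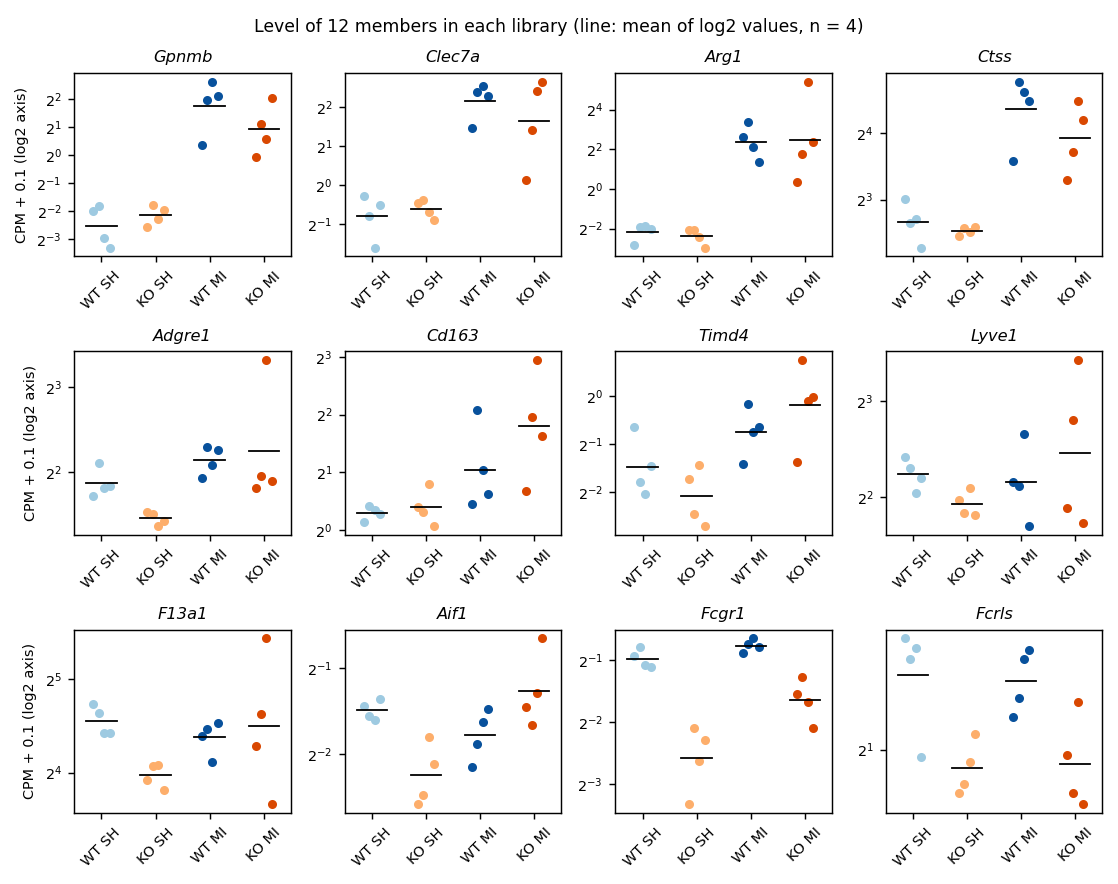
Level of 12 members in each library, as CPM + 0.1 on a log2 axis, with the mean of the log2 values of the 4 libraries as a line. In the top row every MI library is above every sham library of its genotype, in the middle row KO MI replicate 3 is the highest point of *Adgre1*, *Cd163* and *Lyve1*, and in the bottom row the KO SH points of *Fcgr1* lie under those of WT SH.

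Of the 5 genes of recruited monocytes and alternative activation, 4 could be tested and 3 of these rose in both genotypes. *Arg1*, which encodes arginase 1, was at 0.0384, 0.160, 0.172 and 0.145 CPM in WT SH, on 2 to 6 counts a library, and at 5.95, 10.1, 4.27 and 2.45 CPM in WT MI, on 113 to 470 counts. It was at 0.135, 0.135, 0.0834 and 0.0262 CPM in KO SH, on 1 to 6 counts, and at 1.16, 3.31, 42.6 and 5.11 CPM in KO MI, on 57 to 2212 counts. All 8 MI libraries were above all 8 sham libraries, and the MI libraries of each genotype differed widely among themselves. *Arg1* rose with a log2 fold change of 5.52 (SE 1.62, edgeR adjusted p = 0.0173) in WT and 7.06 (SE 1.77, edgeR adjusted p = 0.0018) in KO, and in KO it was 5.01 (edgeR adjusted p = 0.00111) without KO MI replicate 3. *Chil3*, the gene of the chitinase-like protein YM1, which shares much of its sequence with *Chil4*, had 1, 4, 1 and 0 counts in WT SH and 0 in all 4 KO SH libraries, which allows up to 0.0626 to 0.081 CPM in KO SH. It was at 0.231, 2.37, 0.292 and 0.261 CPM in WT MI and 0.163, 0.177, 34.5 and 0.321 CPM in KO MI. Every MI library of each genotype was above every sham library, with an exact two-sided permutation p of 0.0286 in each, the smallest that 4 against 4 can give, and 1791 of the KO MI counts were in replicate 3. *Cd14*, which encodes a co-receptor for lipopolysaccharide, was at 0.480, 0.428, 0.286 and 0.483 CPM in WT SH and 0.841, 1.74, 1.42 and 1.52 CPM in WT MI. In KO it was at 0.316, 0.351, 0.229 and 0.236 CPM after sham and 0.325, 0.925, 1.66 and 1.87 CPM after infarction. KO MI replicate 1 lay within KO SH and all other MI libraries were above sham. *Cd14* rose with a log2 fold change of 1.70 (SE 0.40, edgeR adjusted p = 0.0275) in WT and 2.06 (SE 0.43, edgeR adjusted p = 0.00559) in KO.

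*Plac8*, a gene of circulating monocytes and other leukocytes, was at 0.0961, 0.0534, 0.0572 and 0.0483 CPM in WT SH and 0.168, 0.409, 0.225 and 0.347 CPM in WT MI. It was at 0.135, 0.162, 0.0834 and 0.105 CPM in KO SH and 0.244, 0.236, 0.520 and 0.481 CPM in KO MI, and no library held more than 27 counts. Neither genotype's groups overlapped. *Plac8* rose with a log2 fold change of 2.08 (SE 0.49, edgeR adjusted p = 0.0191) in WT and 1.59 (SE 0.42, edgeR adjusted p = 0.017) in KO. *Ly6c2*, a surface antigen gene of inflammatory monocytes with a close copy in *Ly6c1*, was at 0.173, 0.214, 0.0286 and 0.266 CPM in WT SH and 0.126, 0.172, 0.0450 and 0.217 CPM in WT MI. It was at 0.158, 0.324, 0.125 and 0.157 CPM in KO SH and 0.183, 0.0984, 0.154 and 0.160 CPM in KO MI, on 1 to 12 counts in all 16 libraries. The 4 groups overlapped, and *Ly6c2* alone of the tested genes of this role was not called, with log2 fold changes of -0.30 (95% interval -1.39 to 0.80) in WT and -0.33 (95% interval -1.41 to 0.74) in KO.

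Of the 7 genes of phagocytosis and effector function, the same 6 rose in both genotypes, with median log2 fold changes over the 7 of 1.36 in WT and 1.74 in KO. *Gpnmb* (ENSMUSG00000029816), a transmembrane glycoprotein gene of lipid-laden phagocytes on chromosome 6, was at 0.154, 0.187, 0.0286 and 0 CPM in WT SH and 1.18, 3.81, 6.12 and 4.23 CPM in WT MI. It was at 0.0676, 0.189, 0.104 and 0.157 CPM in KO SH and 0.854, 2.09, 1.41 and 4.04 CPM in KO MI. The 8 sham libraries held 0 to 8 counts and the 8 MI libraries 42 to 272, with no overlap. *Gpnmb* rose with a log2 fold change of 5.28 (SE 0.84, edgeR adjusted p = 0.000355) in WT and 4.004 (SE 0.76, edgeR adjusted p = 0.00156) in KO. *Clec7a*, the gene of the beta-glucan receptor dectin-1, was at 0.730, 0.481, 0.229 and 0.604 CPM in WT SH and 2.67, 5.16, 5.73 and 4.798 CPM in WT MI. It was at 0.631, 0.675, 0.521 and 0.446 CPM in KO SH and 0.996, 2.598, 5.22 and 6.23 CPM in KO MI. All MI libraries were above all sham libraries, and KO MI replicate 1 was nearest to them. *Clec7a* rose with a log2 fold change of 3.12 (SE 0.47, edgeR adjusted p = 0.00147) in WT and 2.71 (SE 0.46, edgeR adjusted p = 0.00181) in KO. *Lgals3*, which encodes galectin-3, was at 0.211, 0.347, 0 and 0.0967 CPM in WT SH and 0.546, 1.72, 1.71 and 1.32 CPM in WT MI. Its KO levels were 0.135, 0.135, 0.0834 and 0.184 CPM in KO SH and 0.325, 0.728, 1.45 and 1.23 CPM in KO MI. The groups did not overlap within a genotype, and KO MI replicate 1 was below one WT SH library. *Lgals3* rose with a log2 fold change of 2.96 (SE 0.60, edgeR adjusted p = 0.00895) in WT and 2.79 (SE 0.64, edgeR adjusted p = 0.00721) in KO.

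*Trem2*, the lipid-sensing receptor gene of phagocytes, was at 0.327, 0.241, 0.372 and 0.169 CPM in WT SH and 0.483, 0.839, 0.674 and 0.868 CPM in WT MI. It was at 0.361, 0.297, 0.229 and 0.446 CPM in KO SH and 0.711, 0.748, 1.54 and 1.47 CPM in KO MI. Neither genotype's groups overlapped, and KO MI replicates 3 and 7 were the highest of all libraries. *Trem2* rose with a log2 fold change of 1.36 (SE 0.35, edgeR adjusted p = 0.0398) in WT and 1.74 (SE 0.33, edgeR adjusted p = 0.00319) in KO, and its WT call was lost at 1.28 (edgeR adjusted p = 0.115) without WT MI replicate 2 and at 1.31 (edgeR adjusted p = 0.101) without WT SH replicate 2. *Msr1*, which encodes the scavenger receptor A, was at 1.903, 2.16, 1.52 and 2.05 CPM in WT SH and 2.92, 4.496, 4.02 and 3.69 CPM in WT MI. In KO it was at 1.74, 1.48, 1.58 and 1.52 CPM after sham and 2.398, 5.83, 5.63 and 3.26 CPM after infarction. Every MI library was above every sham library. *Msr1* rose with a log2 fold change of 0.98 (SE 0.23, edgeR adjusted p = 0.0281) in WT and 1.44 (SE 0.23, edgeR adjusted p = 0.00155) in KO. *Cybb*, the catalytic subunit gene of the phagocyte NADPH oxidase, was at 7.28, 6.07, 5.404 and 5.08 CPM in WT SH and 7.63, 18.4, 17.7 and 17.7 CPM in WT MI. It was at 5.86, 6.15, 5.15 and 5.72 CPM in KO SH and 7.702, 12, 16.7 and 19.7 CPM in KO MI. Replicate 1 of both MI groups was just above the sham libraries, well apart from the other MI libraries. *Cybb* rose with a log2 fold change of 1.36 (SE 0.26, edgeR adjusted p = 0.0095) in WT and 1.29 (SE 0.26, edgeR adjusted p = 0.00544) in KO. *Mertk*, a receptor of apoptotic cells, was the one member of this role that was not called, at -0.01 (95% interval -0.20 to 0.17) in WT and -0.15 (95% interval -0.33 to 0.029) in KO, between 8.68 and 12.5 CPM in all libraries.

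Of the 4 Fc receptor and adaptor genes, 1 rose in WT and 3 in KO, with median log2 fold changes of 0.66 and 1.13. *Fcer1g*, the gene of the Fc receptor gamma chain, an adaptor that carries the signalling motif of activating Fc receptors, was at 1.33, 1.71, 1.52 and 1.35 CPM in WT SH and 1.58, 2.84, 2.59 and 2.28 CPM in WT MI. It was at 1.37, 0.999, 1.46 and 1.42 CPM in KO SH and 1.69, 2.07, 2.62 and 2.19 CPM in KO MI. WT MI replicate 1 lay within WT SH, and the KO groups did not overlap. *Fcer1g* rose with a log2 fold change of 0.66 (SE 0.19, edgeR adjusted p = 0.0683) in WT and 0.70 (SE 0.19, edgeR adjusted p = 0.0237) in KO, and the WT call was lost without any one of WT MI replicates 2, 3 and 4 and WT SH replicates 1, 3 and 4, with edgeR adjusted p of 0.117 to 0.216. *Fcgr3*, a low-affinity receptor for immunoglobulin G, was at 4.38, 4.28, 2.94 and 3.63 CPM in WT SH and 4.67, 8.05, 6.14 and 5.28 CPM in WT MI. It was at 2.77, 3.54, 2.75 and 2.81 CPM in KO SH and 3.86, 5.43, 10.7 and 7.81 CPM in KO MI. Neither genotype's groups overlapped. *Fcgr3* rose in KO with a log2 fold change of 1.23 (SE 0.25, edgeR adjusted p = 0.00513) and was not called in WT at 0.66 (SE 0.24, edgeR adjusted p = 0.169). *Fcgr1* (ENSMUSG00000015947), the high-affinity receptor for immunoglobulin G on chromosome 3, was at 0.423, 0.481, 0.372 and 0.363 CPM in WT SH and 0.441, 0.495, 0.540 and 0.478 CPM in WT MI. It was at 0, 0.135, 0.0626 and 0.105 CPM in KO SH, on 0, 5, 3 and 4 counts, and at 0.244, 0.315, 0.212 and 0.134 CPM in KO MI, on 5 to 16 counts. The WT groups overlapped, and KO MI replicate 7 was just below the highest KO SH library. *Fcgr1* rose in KO with a log2 fold change of 1.62 (SE 0.51, edgeR adjusted p = 0.0358), which was 1.43 (edgeR adjusted p = 0.121) without KO MI replicate 2, and was at 0.25 (95% interval -0.49 to 0.99) in WT. *Tyrobp*, the gene of the adaptor DAP12 that TREM2 signals through, stood on 3 to 60 counts. It was not called by edgeR, at 1.04 (SE 0.42, edgeR adjusted p = 0.2) in WT and 1.03 (SE 0.42, edgeR adjusted p = 0.116) in KO. In KO it was 1.32 (edgeR adjusted p = 0.0915) without KO SH replicate 1, and DESeq2 called it (DESeq2 adjusted p = 0.0667).

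The genotypes were compared next, within sham and within infarct, to see whether the deletion of *Lrrc10* went with a different level of these genes. In KO SH against WT SH, 2 of the 37 members fell and 0 rose, where 2.53% of all tested genes fell and 2.48% rose, and 6 had an unadjusted p under 0.05. *Fcgr1* fell by 2.45 on the log2 scale (SE 0.50, edgeR adjusted p = 0.00374), with every KO SH library below every WT SH library. The KO SH libraries held 12 *Fcgr1* counts in all, and without any one of KO SH replicates 2, 3 and 4 the gene was under the minimum of 10 counts a group and was not tested. *Fcrls* fell by 0.64 (SE 0.19, edgeR adjusted p = 0.0436), with WT SH replicate 4 inside the range of KO SH. The call of *Fcrls* was lost at -0.59 (edgeR adjusted p = 0.12) without KO SH replicate 1, at -0.61 (edgeR adjusted p = 0.105) without KO SH replicate 2 and at -0.55 (edgeR adjusted p = 0.144) without WT SH replicate 1. The other 4 with an unadjusted p under 0.05 were *Csf1*, given above, *Mertk* at 0.28 (SE 0.086, edgeR adjusted p = 0.0563), *Aif1* at -1.11 (SE 0.42, edgeR adjusted p = 0.105) and *F13a1* at -0.59 (SE 0.24, edgeR adjusted p = 0.149). *Aif1* was called without KO SH replicate 3, at -1.46 (edgeR adjusted p = 0.0692). The median over the members was -0.16, over the 11 resident markers -0.32 and over all tested genes 0.0053, and 9 of the 37 members were above 0, where 10282 of the 20159 genes were. With *Xist* status as a term, since KO SH has 2 *Xist*-high libraries and WT SH none, the median was -0.12 over the members, with 13 above 0, and -0.18 over the resident markers, and 2 members were called. Every KO SH library was below every WT SH library for 5 tested members, where this held for 10.2% of all genes.

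In KO MI against WT MI, edgeR called 0 of the 37 members, where 0.57% of all tested genes rose and 1.16% fell. An unadjusted p under 0.05 was found for 5 members in edgeR and 4 in DESeq2, which called *Fcgr1*. *Fcgr1* had a log2 fold change of -1.08 (SE 0.37, edgeR adjusted p = 0.176), with every KO MI library below every WT MI library, as for 3.73% of all genes, and *Fcrls* one of -0.53 (SE 0.18, edgeR adjusted p = 0.189). *Fcrls* was called without KO MI replicate 3, at -0.69 (edgeR adjusted p = 0.0917). *Cd163* was at 0.87 (SE 0.39, edgeR adjusted p = 0.361), *Folr2* at 0.85 (SE 0.40, edgeR adjusted p = 0.399) and *Trem2* at 0.63 (SE 0.30, edgeR adjusted p = 0.393). Single libraries decided some of these: without WT MI replicate 2 *Cd163* was called at 1.37 (edgeR adjusted p = 0.085), and without KO MI replicate 7 *Folr2* was called at 1.12 (edgeR adjusted p = 0.0823) and *Gpnmb* at -1.40 (edgeR adjusted p = 0.0936). Without KO MI replicate 3, *Cd163* was at 0.33 (edgeR adjusted p = 0.808) and *Folr2* at 0.38 (edgeR adjusted p = 0.801), without WT MI replicate 3 *Gpnmb* was at -0.57 (edgeR adjusted p = 0.766), and without KO MI replicates 2 and 7 together *Fcrls* was at -0.32 (edgeR adjusted p = 0.634). The median over the members was 0.11, with 23 of 37 above 0, and without KO MI replicate 3 it was -0.14, with 11 of 37 above 0. Wide intervals remained for several genes, such as -0.26 to 2.67 for *Arg1* and -1.82 to 0.040 for *Gpnmb*, and narrow ones for *Csf1r* at -0.23 to 0.45 and *Stab1* at -0.07 to 0.20.

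The infarct effect in KO minus that in WT was called for 0 of the 37 members by edgeR and 0 by DESeq2, where 0.0248% of all tested genes were called by edgeR, and 4 members had an unadjusted p under 0.05 with each tool. In edgeR these were *Aif1* at 1.83 (SE 0.55, edgeR adjusted p = 0.192), *F13a1* at 0.85 (SE 0.33, edgeR adjusted p = 0.275), *Fcgr1* at 1.37 (SE 0.62, edgeR adjusted p = 0.322) and *Timd4* at 1.66 (SE 0.78, edgeR adjusted p = 0.353). Without KO MI replicate 7, *Aif1* was called at 1.53 (edgeR adjusted p = 0.0955) and *F13a1* at 1.07 (edgeR adjusted p = 0.0302), while *F13a1* was at 0.45 (edgeR adjusted p = 0.421) without KO MI replicate 3 and *Timd4* at 0.96 (edgeR adjusted p = 0.591) without KO MI replicates 2 and 7 together. The difference was above 0 for 26 of the 37 members, with a median of 0.30, where 10136 of the 20159 genes were above 0 with a median of 0.0017. By role, all 11 resident markers were above 0, from 0.040 to 1.66 with a median of 0.73, against 2 of the 7 phagocytic and effector genes, with a median of -0.14. This pattern rested largely on KO MI replicate 3: without it, 8 of the 11 resident markers were above 0 with a median of 0.16, and 19 of the 37 members with a median of 0.016. The interaction is built from the same 16 libraries as the comparisons above, so that a low KO SH level enters both the sham comparison and the infarct effect of KO. It also includes WT SH, which had no *Xist*-high library. With *Xist* status as a term, 25 of the 37 members were above 0 with a median of 0.21, and all 11 resident markers with a median of 0.61.

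**Figure D4:**
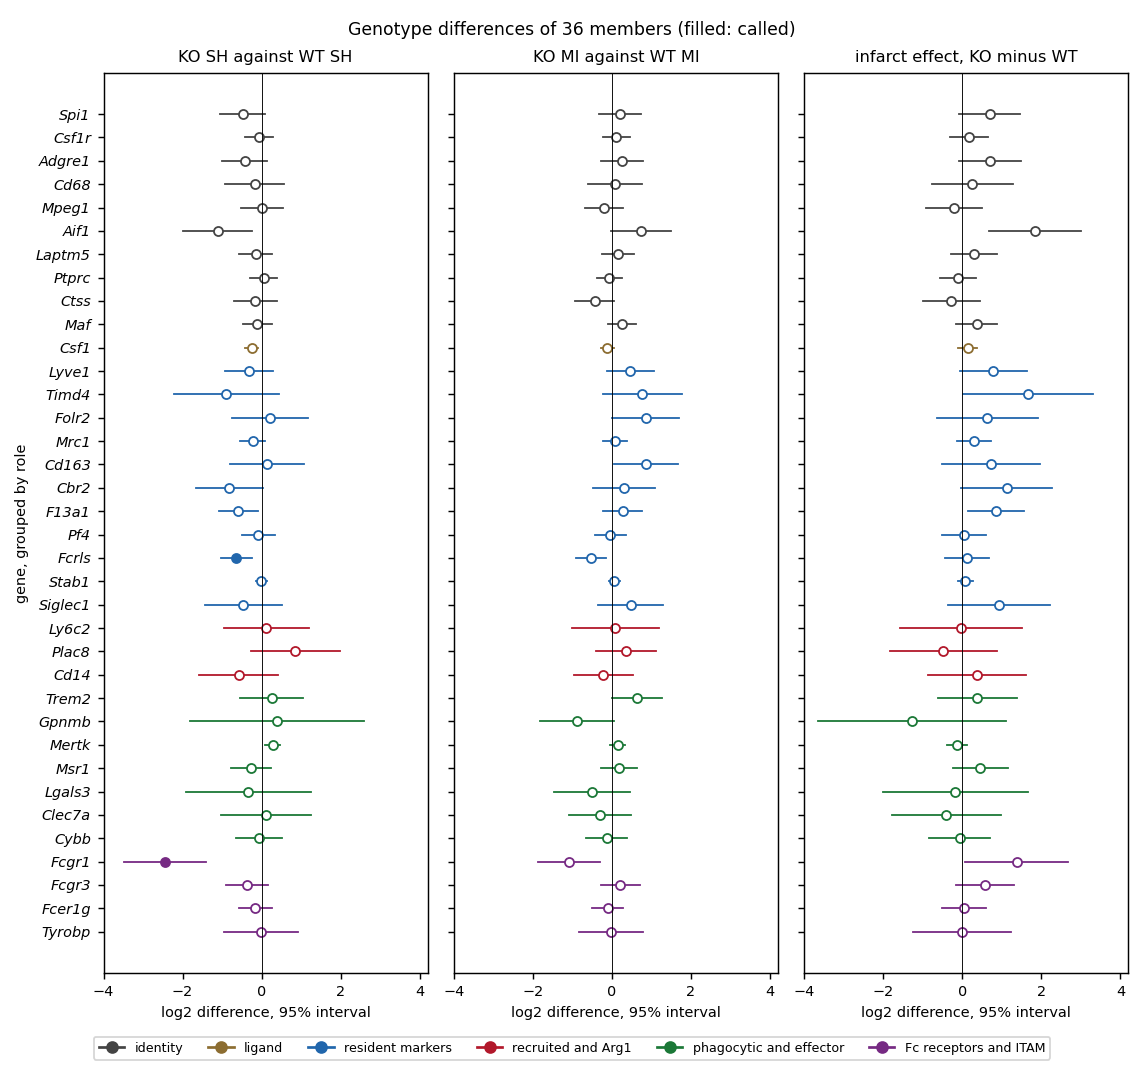
Log2 difference with its 95% interval for 36 members (*Arg1*, whose intervals run past the axes, and *Chil3* are left out) in KO SH against WT SH, KO MI against WT MI and the infarct effect of KO minus that of WT, with filled points for called members. Only *Fcrls* and *Fcgr1* in the sham comparison are filled, and in the right panel all 11 blue resident markers lie above 0.

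Markers of other cell types moved with infarction too. The 9 neutrophil markers summed to 1.496 to 2.09 CPM in WT SH, 3.24 to 3.73 in KO SH, 6.96 to 22.5 in WT MI and 6.71 to 13.9 in KO MI, and of the 6 tested, 6 rose in WT and 5 in KO. Of all tested genes, 2.13% rose and 0.645% fell in WT, and 5.31% rose and 2.1% fell in KO. *Ly6g*, *Mmp8* and *Camp* were too low to be tested. The MI library with the lowest neutrophil sum was replicate 1 in both genotypes, as it was for most members. The 6 lymphatic endothelial markers summed to 154 to 167 CPM in WT SH, 155 to 174 in KO SH, 148 to 172 in WT MI and 117 to 158 in KO MI. The 6 platelet and megakaryocyte markers summed to 2.11 to 2.80 CPM in WT SH, 2.25 to 4.11 in KO SH, 1.69 to 2.23 in WT MI and 1.77 to 2.99 in KO MI. No gene of either list rose after infarction, while 2 lymphatic and 1 platelet gene fell in KO. The 9 T lymphocyte markers ran from 1.13 to 3.51 CPM over all libraries, and the 5 B lymphocyte markers from 1.28 to 9.42 CPM, the highest in KO MI replicate 3. The 6 fibroblast markers summed to 1323 to 1562 CPM in WT SH, 1206 to 1345 in KO SH, 1668 to 2005 in WT MI and 1755 to 2074 in KO MI. The part of these cells in the levels of members that they also express was not tested. The 5 genes of a list of lung markers (*Sftpc*, *Sftpa1*, *Sftpb*, *Scgb1a1* and *Marco*) were too low to be tested. Of these, *Marco* is a receptor gene of macrophages and not of epithelium. The 5 genes, *Marco* included, summed to 0 to 0.0577 CPM in WT SH, 0.0225 to 0.104 in KO SH, 0.231 to 2.17 in WT MI and 0.833 to 4.43 in KO MI. Whether lung tissue was carried into the MI libraries was not tested.

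Related genes outside the 38 were read from fixed lists. Of 40 other macrophage genes, 35 were tested, and 9 rose and 1 fell in WT, and 18 rose and 1 fell in KO. For this and the lists below, 2.13% of all tested genes rose and 0.645% fell in WT, and 5.31% rose and 2.1% fell in KO. *Ccr2*, the chemokine receptor of recruited monocytes, rose at 1.92 (SE 0.27, edgeR adjusted p = 0.000971) in WT and 1.25 (SE 0.25, edgeR adjusted p = 0.00539) in KO, and *Itgam*, the CD11b gene, at 1.58 (SE 0.39, edgeR adjusted p = 0.0354) and 2.61 (SE 0.39, edgeR adjusted p = 0.00101). The complement genes *C1qa*, *C1qb* and *C1qc*, made by tissue macrophages, were not called in WT at 0.025, 0.26 and 0.21 and rose in KO by 0.83, 1.003 and 1.08. In KO SH against WT SH, which holds a difference in sex, *C1qa* and *C1qb* fell by 0.78 and 1.06. Of the 35 tested genes of the list, 2 fell and 0 rose there, where 2.53% of all tested genes fell and 2.48% rose. In KO MI, *Itgam* was at 5.28, 12.4, 31.6 and 12.04 CPM and *C1qa* at 1.504, 2.62, 3.89 and 2.19 CPM. *Ccr2*, *C1qb* and *C1qc* were also highest in KO MI replicate 3, and values of these genes without that library are not given. *Nos2*, the inducible nitric oxide synthase gene, was the one that fell, at -0.69 (SE 0.13, edgeR adjusted p = 0.0095) in WT and -0.53 (SE 0.14, edgeR adjusted p = 0.0177) in KO. Of 20 tested genes of ITAM adaptor signalling that are not members, 8 rose in WT and 9 in KO and 0 fell, among them *Clec4e*, a receptor that signals through the gamma chain, at 2.71 (SE 0.61, edgeR adjusted p = 0.0183) and 3.19 (SE 0.72, edgeR adjusted p = 0.00549), while the kinase *Syk* did not reach the fold at 0.38 and 0.41. Of 13 tested genes of the CSF1R axis that are not members, 3 rose in each genotype, with *Csf2rb* and *Runx1* in both, *Csf3r* in WT and *Tfec* in KO. *Il34*, the other ligand of CSF1R, was not called in either genotype, at 0.43 and -0.36. Of 15 tested efferocytosis genes that are not members, 1 rose in WT and 2 in KO, with *Dock2* in both, and the bridging and receptor genes *Axl*, *Gas6* and *Mfge8* were not called, at -0.18, -0.010 and 0.047 in WT and -0.0007, 0.21 and 0.40 in KO.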

How the data were processed

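RNA of 16 whole ventricles was sequenced as strand-specific paired 150-base reads. The authors deposited expected counts per gene from RSEM on the GRCm39 build, which are whole numbers in the table. The paper names Skewer and STAR before RSEM, and the submitters' processing notes name cutadapt 3.4, HISAT2 2.2.1 and RSEM 1.1.17, so the aligner is uncertain. No filter for reads shared between close gene copies is given in the sources used here. Identifiers without a gene name held 0.570 to 0.786% of a library's counts and stayed in the library totals.

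Groups were taken from the labels. The fit used edgeR 4.0.16 in R 4.3.3 with TMM normalization, a coefficient for each group over all 16 libraries, genes with at least 10 counts summed in each group, and quasi-likelihood tests. Other settings, with DESeq2 1.42.0 among them, stand in the closing section. The scripts were tested on simulated data. The members and lists were chosen with earlier results of these data known. Genes given with every library's values are all members called in any comparison and *Csf1r*, *Adgre1*, *Cd68*, *Lyve1*, *Timd4*, *Folr2*, *Trem2* and *Ly6c2*. Motifs were counted in GRCm39 windows of protein-coding genes. The promoter sequence of 1 further member is not reported here. The paper describes the libraries as hearts of 4 mice a group. Same-numbered libraries did not deviate together.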

Additional observations from a re-analysis of the deposited data

Results flagged for a closer look

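In 11 of 151 sets of 4 libraries (7.28%, each set a member in a group), the highest or lowest library stood apart from the other 3 by Dixon's criterion, which chance meets in about 1 of 20 sets. In 8 of the 11 it was the highest. KO MI replicate 3 stood apart for *Adgre1* at 9.903 CPM, *Siglec1* at 3.12 CPM, *Chil3* at 34.5 CPM and *Arg1* at 42.6 CPM. KO SH replicate 2 stood apart for *Pf4* as the lowest at 1.27 CPM, for *Ly6c2* at 0.324 CPM and for *Fcgr3* at 3.54 CPM. WT MI replicate 1 was the low library for *Cybb* at 7.63 CPM and *Tyrobp* at 0.588 CPM. WT MI replicate 2 stood apart for *Chil3* at 2.37 CPM, and WT SH replicate 2 for *Mertk* at 11.1 CPM. Of the genes for which KO MI replicate 3 stood apart, *Adgre1*, *Siglec1* and *Arg1* were called in KO MI against KO SH, and *Adgre1* was no longer called without that library.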

How the results depend on the processing

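No called log2 fold change of a single member changed sign under the settings tried, but the median of the members in KO MI against WT MI did, from 0.11 to -0.14, without KO MI replicate 3. Members called after infarction numbered 10 to 14 in WT and 20 to 29 in KO when 1 library was left out in turn, and 12 to 15 and 21 to 29 under the other settings. In KO MI against WT MI, 0 members were called and 0 to 2 with 1 library left out, in KO SH against WT SH 2 and 0 to 2, and in the interaction 0 and 0 to 2. DESeq2 called 1 member in KO MI against WT MI. With no minimum fold change 4 were called in KO SH against WT SH. Leaving out KO MI replicates 2 and 7 together, which was chosen after seeing the data like the *Xist* term, gave 1 in the interaction. With the replicate number as a block, 2 were called in the interaction, 1 in KO MI against WT MI and 4 in KO SH against WT SH, but the numbers did not pair the libraries: over 21 pairs of same-numbered libraries the correlation of deviations from the group means ran from -0.062 to 0.112, with 1 over 0.1. For single members, 34 alternatives lost a call and 41 gained one, and the cause was not tested.

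Over all genes, the interaction was called for 5, against 289 by DESeq2, 39 with no filter, 689 with the replicate block, 8 with a robust fit or with the *Xist* term, 3 at an adjusted p under 0.05, 369 without KO MI replicates 2 and 7, and 2 to 840 with 1 library left out, the highest without KO MI replicate 7. With no minimum fold change the counts were 3533 against 1494 in KO MI against KO SH, 1069 against 559 in WT MI against WT SH, 619 against 348 in KO MI against WT MI and 2483 against 1010 in KO SH against WT SH. KO MI against WT MI gave 199 with only the 2 groups compared, 227 without WT MI replicate 1 and 575 without KO MI replicate 7. Without KO MI replicate 2, KO MI against KO SH gave 887, without WT MI replicate 2, WT MI against WT SH gave 283 and without WT SH replicate 1 it gave 364, and without WT SH replicate 1, KO SH against WT SH gave 660. The balance of higher and lower genes was 500 to 510 in KO SH against WT SH, 609 to 580 with only the 2 groups compared and 593 to 551 with the block, and in the interaction 4 to 1, and 165 to 204 without KO MI replicates 2 and 7. *Aif1*, *Ly6c2*, *Plac8* and *Fcgr1* stood on few counts in every library, which limits what could be seen of them.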

Other observations

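Other lists held further values. All 5 erythroid and all 6 dividing-cell markers rose in KO MI against KO SH, with median log2 fold changes of 0.86 and 0.67, where 0 and 1 rose in WT MI against WT SH, with medians of 0.041 and 0.32. Of all tested genes, 5.31% rose in KO and 2.13% in WT. The interaction was called for 0 genes of either list by edgeR, with 3 of each at an unadjusted p under 0.05 and medians of 0.97 and 0.32. DESeq2 called 2 of the 4 erythroid genes with an adjusted p and 1 of the 6 dividing-cell genes. The 5 atrial cardiomyocyte markers summed to 2427 CPM in KO MI replicate 2 and to 159 to 856 CPM in the other KO MI libraries. Of the 13 tested CSF1R axis genes that are not members, 1 rose and 1 fell in KO SH against WT SH, where 2.48% and 2.53% of all tested genes did. In KO MI against WT MI, 0 rose and 1 fell, where 0.57% and 1.16% did. The gene that fell was *Klf4*, a transcription factor gene of monocytes and endothelium, named here after its values were seen. It had a log2 fold change of -1.18 (SE 0.12, edgeR adjusted p = 1.11e-05) in KO SH against WT SH and -0.82 (SE 0.12, edgeR adjusted p = 0.00119) in KO MI against WT MI.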
